A study of Rattus norvegicus with 6 samples.

Results

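The miRNAs described here are those of the imprinted miR-379 to miR-410 cluster of the rat. They were chosen by name, as every arm and letter variant in the count table of the cluster's miRNAs, from miR-379 to miR-410. The rule used no measured value, but it was set with earlier results of these data known. It gave 68 of the 775 miRNAs in the table. Of these 68, 65 had at least 10 counts over the 6 libraries together and were tested, among 454 tested miRNAs in all. The other 3 were miR-409b and miR-679 with 1 count each and miR-494-5p with 1 to 3 counts in 5 libraries and 0 in tilianin-treated replicate 2. The libraries were made from small RNA of the brains of male Sprague–Dawley rats that were 7 weeks old when bought. Both groups had the 2VO operation, in which both common carotid arteries are tied under pentobarbital sodium (30 mg/kg), so that blood flow to the forebrain stays low. Both groups then received the vehicle, 0.5% CMC-Na at 5 mL/kg, over 4 weeks. The 2VO group (3 libraries) received it alone. For the tilianin-treated 2VO group (3 libraries) it carried tilianin, a flavonoid glycoside, at 40 mg/kg by gastric tube each day. The labels give the tissue as brain, and the study's own figure legend names the cortex. The comparison asks which of these miRNAs differed in level between treated and untreated 2VO rats. Sham-operated rats are not analysed here, so a change caused by the operation itself cannot be seen.

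The cluster lies in the Dlk1-Dio3 domain, where only the chromosome inherited from the mother makes the miRNAs. They are cut from long non-coding transcripts, each hairpin giving a mature miRNA from its 5′ arm (5p), its 3′ arm (3p) or both. A mature miRNA pairs with messenger RNAs mainly through its seed, bases 2 to 8, and lowers their translation or stability. In the brain the cluster is known for its expression in neurons, where activity raises its transcription through the factor Mef2 and where miR-134, miR-329 and miR-381 act on the growth of dendrites and spines. Members of the cluster have also been studied in ischaemic tissue, since blocking miR-329, miR-487b, miR-494 or miR-495 increased the growth of blood vessels after limb ischaemia in mice.

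In the RefSeq annotation of the rat genome build GRCr8, 67 of the 68 miRNAs were found, from 35 miRNA genes on chromosome 6 between positions 134543445 and 134579838, a stretch of 36394 nucleotides. The build behind the authors' counts is not given in the sources used here, so these positions are those of RefSeq. The mature sequences are 17 to 25 nucleotides long. Of the 67, 64 lie on the plus strand and 3 on the minus strand, namely both arms of miR-299b and miR-409b. Despite their common origin the members carry 61 different seeds, and only 5 seeds are shared, by 11 members. The sequences below, written 5′ to 3′ with the seed in capitals, are from RefSeq. The first are the 3 most abundant members, whose seeds differ, and miR-134-5p, the member best known from dendritic spines.
miR-409a-5p: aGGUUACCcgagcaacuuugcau
miR-541-5p: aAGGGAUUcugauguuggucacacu
miR-379-5p: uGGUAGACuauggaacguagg
miR-134-5p: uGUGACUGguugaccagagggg
The next 3 are the pair of members with an unadjusted p-value below 0.05 in the group comparison and miR-494-3p, which lay lowest in a single library.
miR-487b-5p: aGUGGUUAucccuguccucuucg
miR-412-5p: uGGUCGACcagcuggaaagu
miR-494-3p: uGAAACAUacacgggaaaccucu
The last are near copies or share a seed, which bears on how far their counts can be told apart.
miR-299a-3p: uAUGUGGGacgguaaaccgcu
miR-299b-3p: uAUGUGGGacgguaaac
miR-299a-5p: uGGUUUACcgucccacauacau
miR-299b-5p: cGGUUUACcgucccacauac
miR-376b-5p: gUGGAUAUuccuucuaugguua
miR-376c-5p: gUGGAUAUuccuucuauguuu
miR-300-3p: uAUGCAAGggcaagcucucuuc
miR-381-3p: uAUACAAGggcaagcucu
miR-539-3p: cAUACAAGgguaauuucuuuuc

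The whole sequence of miR-299b-3p, 17 bases, lies inside that of miR-299a-3p, although the hairpins lie on opposite strands. Their counts were almost the same in every library, with 41, 76 and 65 for miR-299a-3p and 38, 76 and 64 for miR-299b-3p in the 2VO replicates, and 38, 22 and 50 against 37, 21 and 50 in the treated replicates. These rows therefore cannot be taken as separate measurements. miR-299a-5p and miR-299b-5p differ by U1C over their 20 common bases, counted from the 5′ end with the base of miR-299a-5p first, and had means over all libraries of 4.16 and 0.171 CPM (counts scaled to library size, after TMM scaling). miR-376b-5p and miR-376c-5p differ by G19U, and had 173 and 0.631 CPM. miR-300-3p and miR-381-3p differ by G4A over 18 bases, which gives them different seeds, and had 425 and 74.8 CPM. How the authors divided reads between such near copies is not stated, so the lower member of each pair is uncertain.

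The libraries held 7428890 to 13198776 counts in the 2VO group and 7175872 to 9464216 in the treated group. A count of 0 still allows 3 counts, which is 0.227 to 0.418 CPM by library totals, a limit that covers counting error only. Nothing says that each library is a separate rat, so p-values measure the spread between libraries, which may be technical. Treated replicate 2 stood apart. Across the 65 tested members its Spearman correlation with the other libraries was 0.966 to 0.978, against 0.989 to 0.994 among the other 5. Across all tested miRNAs these ranges were 0.936 to 0.957 and 0.983 to 0.992, so the deviation was not limited to the cluster. Results are therefore given with and without this library. Of the 8 marker miRNAs of neurons, such as miR-124-3p, 7 were found by exact name. The other, miR-9-5p, had no row under that name, and other names for it were not looked up. Of the 7 found, 0 were called. They summed to 96767 to 130088 CPM in the 2VO libraries and to 120259, 62180 and 127932 CPM in treated replicates 1, 2 and 3. The 4 Hox-cluster miRNAs, which mark caudal tissue, summed to 89.8 to 149 CPM in the 2VO libraries against 321, 21658 and 489 CPM in the treated ones. Of these 4, 3 were tested, 2 were upregulated, and miR-196b-5p was at 0 in every library. The 4 choroid plexus miRNAs, of which 3 were upregulated, summed to 120 to 152 CPM against 349, 1078 and 123 CPM. Most of this sum was miR-204-5p, at 1064 CPM in treated replicate 2. miR-449a-5p of this list was not called and went the other way (log2 fold change -0.59). Over the whole table, 4.63% of the tested miRNAs were upregulated. Sums in the 2VO libraries and in treated replicates 1, 2 and 3 were 155 to 198 against 406, 881 and 338 CPM for 3 red blood cell miRNAs, 327 to 460 against 499, 748 and 459 CPM for 4 myeloid miRNAs, and 88.5 to 131 against 182, 492 and 121 CPM for 4 muscle miRNAs, with 1 upregulated in each list. Those of oligodendrocytes (3 miRNAs) and endothelium (2 miRNAs), with 0 called, were 18.2 to 35.3 against 31.7, 50.4 and 17.5 CPM and 5372 to 8553 against 6863, 6509 and 7203 CPM. Most of several sums was again a single row. In treated replicate 2, miR-486 had 876 CPM, miR-142-5p of the myeloid list 709, miR-133a-3p of muscle 358 and miR-338-3p of oligodendrocytes 49.4. miR-451-5p, miR-1-3p and miR-219a-5p had too few counts to be tested. miR-146a-5p of the myeloid list went the other way (log2 fold change -0.16), as did miR-219a-2-3p of oligodendrocytes (-0.18).

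Members of the cluster spanned a wide range of levels. For miR-409a-5p, CPM were 7239, 8649 and 8249 in 2VO replicates 1, 2 and 3 against 5466, 3831 and 7849 in the treated replicates. It alone made up 39.8% of the mean CPM of the cluster, the 10 highest members 73.5% and the 20 highest 89.96%. miR-541-5p followed with 1304 ± 43.3 CPM in the 2VO group against 1151 ± 179 CPM under treatment (SD, n = 3 each), and then miR-379-5p with 1033 ± 121 and 1030 ± 99.0 CPM. The next 7 members, miR-487b-3p, miR-376b-3p, miR-411-3p, miR-323-3p, miR-380-3p, miR-411-5p and miR-300-3p, had 2VO means between 431.1 ± 27.1 CPM (miR-300-3p) and 632 ± 41.0 CPM (miR-487b-3p). Their neighbours in this order lay within the spread of the libraries, as miR-323-3p with 594 ± 51.6 CPM and miR-411-3p with 569 ± 104 CPM show (SD, n = 3 each). At the other end, 9 tested members had a mean under 1 CPM. Mature miRNAs are close in length, so the counts were not divided by it, and differences in how well each sequence is captured in a library are not corrected for.

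**Figure D1:**
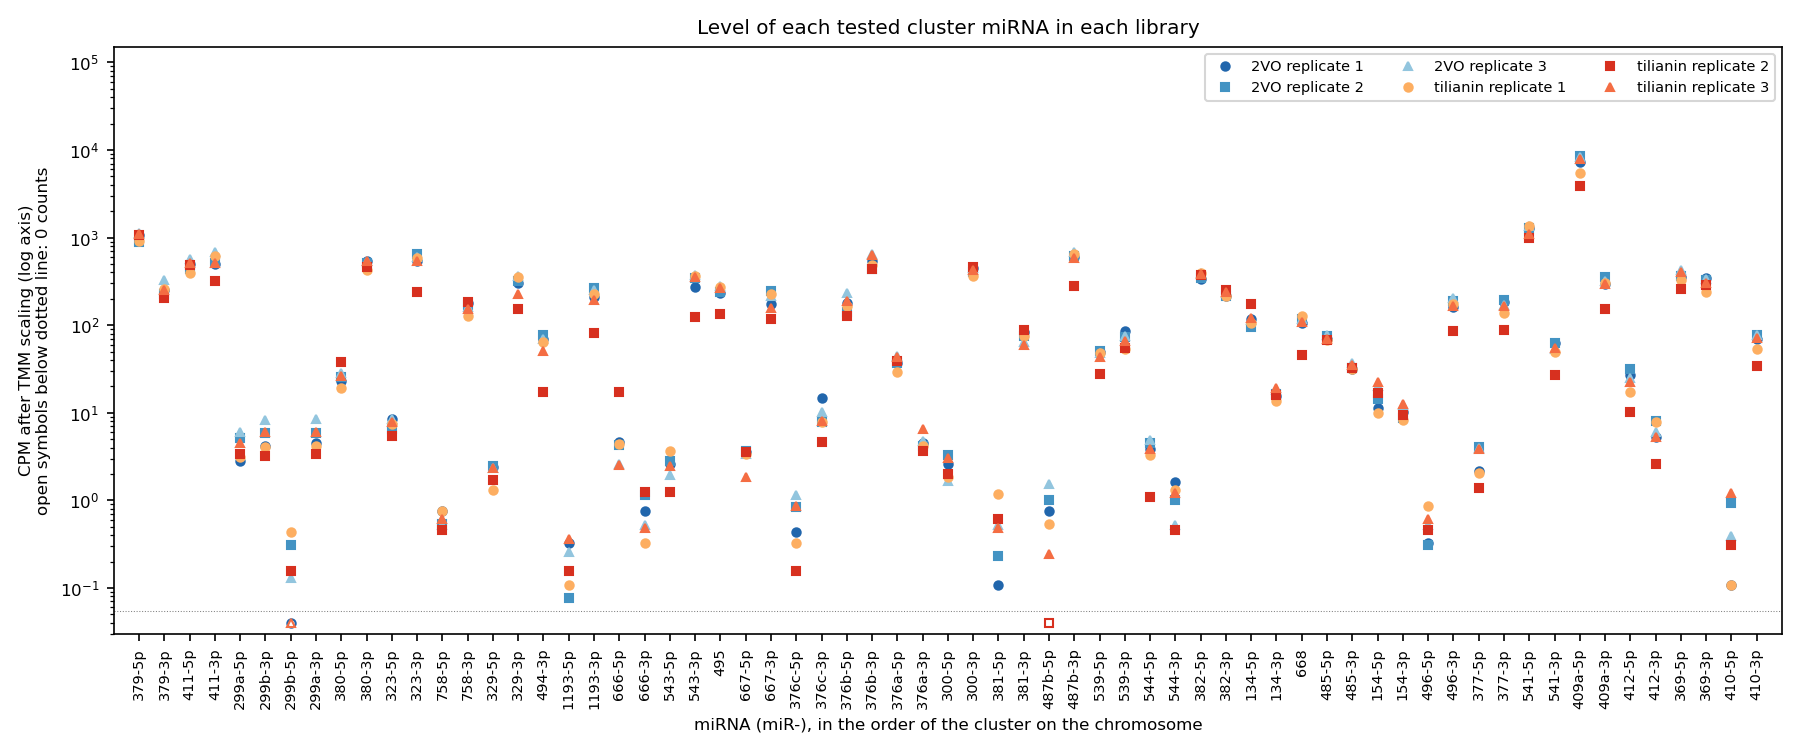
Level of each of the 65 tested cluster miRNAs in each of the 6 libraries, in CPM after TMM scaling on a log axis, in the order of the mature sequences on the chromosome. Blue symbols are 2VO libraries and orange or red symbols treated libraries, open symbols mark 0 counts, and miR-409a-5p at 3831 to 8649 CPM stands above the rest.

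Summed over all 68 members, the cluster reached 17894, 19279 and 20179 CPM in 2VO replicates 1, 2 and 3, against 15901, 11954 and 18447 CPM in treated replicates 1, 2 and 3. Treated replicate 2 was the lowest and treated replicate 3 lay inside the 2VO range, so the groups overlapped. The means were 19118 ± 1151 and 15434 ± 3272 CPM (SD, n = 3 each), so that the treated mean was 80.7% of the 2VO mean, or 89.8% without treated replicate 2. Of all counts, the cluster held 1.88%, 1.89% and 2.10% in the 2VO libraries and 1.55%, 1.08% and 1.95% in the treated ones. For treated replicate 2 the exact 95% binomial interval was 1.07% to 1.09%, which covers counting error only. Much of the difference was in miR-409a-5p, which made up 40.5%, 44.9% and 40.9% of the cluster's sum in the 2VO libraries and 34.4%, 32.1% and 42.6% in the treated ones. Without it the treated mean was 87.8% of the 2VO mean. In tissue measured in bulk, fewer cells of a type and less RNA per cell cannot be told apart. The summed neuron markers were lowest in the same library, and their part in the result was not tested.

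**Figure D2:**
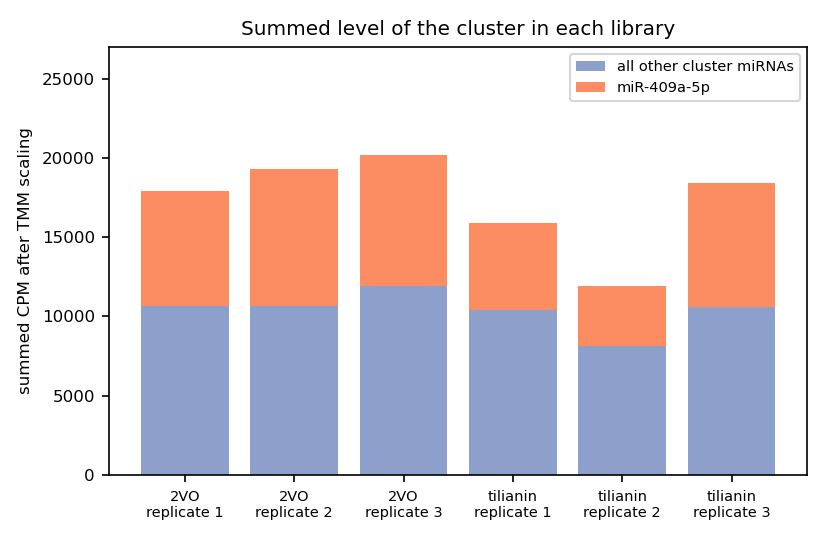
Summed level of the 68 cluster miRNAs in each library, in CPM after TMM scaling, split into miR-409a-5p (orange) and all other members (blue). Treated replicate 2 has the lowest bar at 11954 CPM and treated replicate 3, at 18447 CPM, lies among the 2VO libraries.

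Between the groups, 0 of the 65 tested members were upregulated and 1 was downregulated at the study's thresholds (unadjusted p below 0.05, and a log2 fold change beyond 1 or -1). In the whole table, 4.63% of the tested miRNAs were upregulated and 1.1% downregulated. Without the fold change criterion, 2 members (3.08%) had an unadjusted p-value below 0.05, against 7.27% of all tested miRNAs. The share of members past the p-value threshold was thus below that of the table. The smallest Benjamini-Hochberg adjusted p among members was 0.637 with edgeR's quasi-likelihood test, and 0 members had an adjusted p under 0.05. Small differences in 1 direction were nevertheless common. The log2 fold change, tilianin-treated over 2VO, was below 0 for 51 of 65 members (78.5%) and for 53.3% of all tested miRNAs. Its median was -0.19 over the members and -0.03 over all tested miRNAs. Without treated replicate 2, 43 of 64 tested members (67.2%) were below 0, against 48.1% of all tested, with medians of -0.09 and 0.01, and 0 members had an unadjusted p-value below 0.05. Nearly all members lie on 1 strand of the same locus, and all were measured in the same 6 libraries. They are not independent of each other, so these shares are given without a test.

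Besides the downregulated member, miR-381-5p and miR-666-5p had log2 fold changes beyond 1 or -1. The higher value of miR-666-5p rested on a single library. It had 42, 55 and 20 counts in the 2VO libraries against 40, 112 and 21 in the treated ones, so that only treated replicate 2 was above the 2VO range. Its log2 fold change was 1.06 (SE 0.694, unadjusted p = 0.170 in edgeR's test), and -0.13 without treated replicate 2. miR-381-5p is described with its hairpin.

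**Figure D3:**
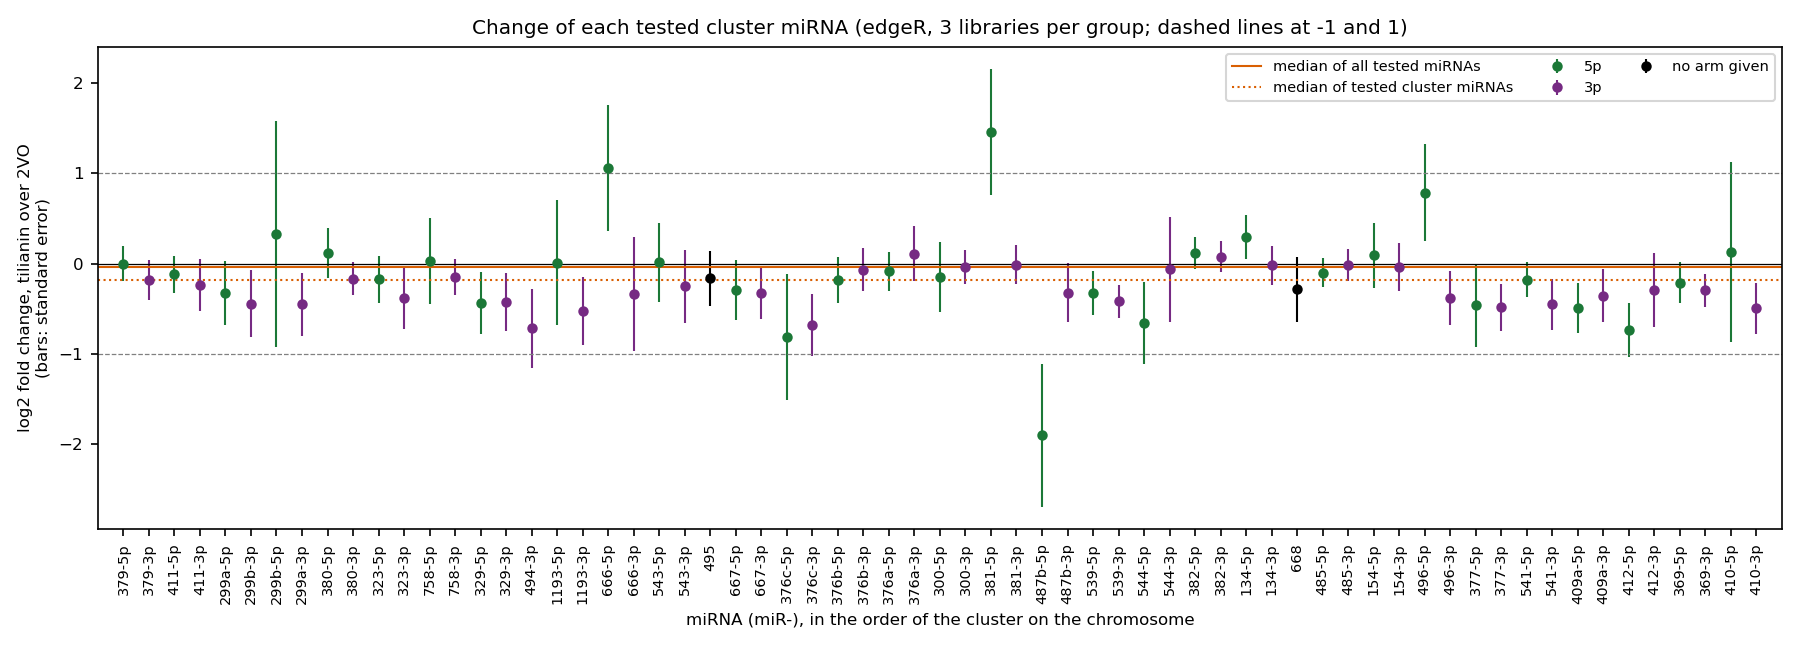
Log2 fold change of each tested cluster miRNA, treated over 2VO, with its approximate standard error (bars), in chromosome order and coloured by arm. Most points lie between -1 and 0, the median of the members is -0.19, and miR-487b-5p (-1.90), miR-381-5p (1.46) and miR-666-5p (1.06) lie beyond the dashed lines.

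The downregulated member was miR-487b-5p, the rare arm of its hairpin. It had 7, 13 and 12 counts in 2VO replicates 1, 2 and 3 and 5, 0 and 2 in treated replicates 1, 2 and 3, so every treated library lay below every 2VO library. The log2 fold change was -1.90 (approximate standard error, SE, 0.790, unadjusted p = 0.0463 in edgeR's quasi-likelihood test). Without treated replicate 2 it was -1.39 (unadjusted p = 0.0652 in edgeR's test). Its partner miR-487b-3p, the arm that makes up nearly all of the hairpin's reads, had 604, 613 and 678.7 CPM against 652, 277 and 584 CPM, with a log2 fold change of -0.33 (SE 0.326). Treated replicate 2 was far below the other libraries for this arm, and without it the log2 fold change was -0.01. The other member with a p-value below the threshold was miR-412-5p, with 26.7, 31.2 and 24.97 CPM in the 2VO libraries against 17.2, 10.3 and 22.2 CPM in the treated ones. Again the groups did not overlap, and the log2 fold change was -0.74 (SE 0.301, unadjusted p = 0.0442 in edgeR's test), or -0.48 without treated replicate 2 (unadjusted p = 0.0611). Each of these p-values passed the threshold in only 1 of the 6 fits that left out a library, that without treated replicate 1 for miR-487b-5p (unadjusted p = 0.0217 in edgeR's test) and that without treated replicate 3 for miR-412-5p (unadjusted p = 0.0153).

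In 7 of the 65 tested members (10.8%) every treated library lay below every 2VO library, against 4.19% of all tested miRNAs, and in 0 members were all above, against 5.51%. Besides miR-487b-5p and miR-412-5p these were miR-329-5p, miR-369-3p, miR-377-3p, miR-494-3p and miR-539-3p. Without treated replicate 2 there were 9 such members (13.8%), against 6.39% of all tested. Leaving out a library can only keep this count or raise it, so this is no check on the 7. miR-369-3p, known for binding the AU-rich element of the tumour necrosis factor messenger, had 348, 324 and 339 CPM in the 2VO libraries against 239, 286 and 299.2 CPM in the treated ones. Treated replicate 1 was its lowest library. Its log2 fold change was -0.29 (SE 0.183, unadjusted p = 0.152 in edgeR's test) and -0.31 without treated replicate 2. miR-539-3p had 85.5, 73.1 and 76.2 CPM against 54.1, 55.0 and 66.5 CPM, a log2 fold change of -0.42 (SE 0.180, unadjusted p = 0.0520), and -0.36 without treated replicate 2. miR-381-3p, which has the same seed, had 84.5, 75.6 and 65.1 CPM against 75.5, 88.1 and 59.9 CPM, and a log2 fold change of -0.01 (SE 0.214). The groups thus overlapped for one and not for the other, but the difference between these miRNAs was not tested.

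None of the 10 most abundant members passed the p-value threshold with all 6 libraries. For miR-409a-5p the log2 fold change was -0.49 (SE 0.276, unadjusted p = 0.117 in edgeR's test), and treated replicate 3 lay among the 2VO libraries. It was -0.26 without treated replicate 2 (unadjusted p = 0.218 in edgeR's test) and -0.80 without treated replicate 3 (unadjusted p = 0.0154). miR-541-5p had 1273, 1286 and 1354 CPM against 1348, 998 and 1108 CPM, a log2 fold change of -0.18 (SE 0.195) that was -0.07 without treated replicate 2. miR-379-5p, the first member of the cluster, had 1071, 898 and 1132 CPM against 918, 1071 and 1103 CPM, and its log2 fold change of -0.00 had a standard error of 0.194 and changed sign between settings. Over the other 7 of the 10 most abundant members the log2 fold changes lay between -0.39 (miR-323-3p, standard error 0.339) and -0.04 (miR-300-3p, standard error 0.187). Without treated replicate 2 that of miR-323-3p was -0.07.

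miR-323-3p had 540, 643 and 599 CPM in the 2VO libraries against 589, 241 and 533 CPM in the treated ones. miR-376b-3p had 540.8, 440 and 643 CPM against 482, 436 and 630 CPM. In this group of abundant members treated replicate 3 was mostly inside or close to the 2VO range and treated replicate 2 was often below it. Treated replicate 1 was inside the range for some, but was the lowest library for miR-380-3p, miR-411-5p and miR-300-3p. miR-411-3p had 499, 519 and 689 CPM against 616, 320 and 515 CPM, and miR-411-5p, from the other arm, 505, 436 and 567 CPM against 394, 486 and 508 CPM. miR-380-3p had 532 ± 21.8 CPM against 475 ± 54.6 CPM (SD, n = 3 each), from 4992, 6573 and 4221 counts against 3966, 2968 and 4389, and miR-300-3p 447, 400 and 446 CPM against 366, 462 and 427 CPM. None of these 6 had an unadjusted p-value below 0.05.

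Among the members with known roles in neurons, values went both ways and none passed the test. miR-134-5p, which limits the size of dendritic spines by holding back Limk1, had 116, 94.3 and 113 CPM in the 2VO libraries against 105, 173 and 120 CPM in the treated ones. Its log2 fold change was 0.29 (SE 0.240, unadjusted p = 0.259 in edgeR's test), and 0.07 without treated replicate 2, its highest library. The other arm, miR-134-3p, had 15.5, 16.2 and 18.2 CPM against 13.8, 16.0 and 19.4 CPM. miR-329-3p, which acts in dendrite growth, had 303, 320 and 368 CPM against 359, 152 and 229 CPM, a log2 fold change of -0.42 (SE 0.321). Without treated replicate 2 it was -0.15, and without treated replicate 1 it was -0.77 (unadjusted p = 0.0195 in edgeR's test). miR-485-5p, which acts on the synaptic vesicle protein Sv2a, varied little between libraries, with 69.2, 74.3 and 77.4 CPM against 68.5, 67.1 and 70.1 CPM. Its log2 fold change of -0.10 had a standard error of 0.161, and miR-485-3p had 31.6, 32.1 and 36.7 CPM against 31.7, 32.5 and 34.9 CPM. miR-382-5p had 333, 348 and 395 CPM against 399, 378 and 386 CPM, a log2 fold change of 0.11 (SE 0.177). miR-376a-3p, from a hairpin family known for editing of its seed by ADAR enzymes, was low, with 4.47, 4.17 and 4.79 CPM against 4.13, 3.70 and 6.59 CPM. miR-410-3p, from the last hairpin of the cluster, had 69.1, 78.1 and 77.4 CPM against 53.0, 34.3 and 71.7 CPM, a log2 fold change of -0.50 (SE 0.278, unadjusted p = 0.116), and -0.25 without treated replicate 2.

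Of the 4 miRNAs studied in vessel growth, miR-329-3p and miR-487b-3p are described above. miR-495 had 231, 238 and 283 CPM in the 2VO libraries against 271, 133 and 266 CPM in the treated ones, a log2 fold change of -0.16 (SE 0.301) that was 0.12 without treated replicate 2. miR-494-3p, picked for its values in treated replicate 2, had 69.3, 77.3 and 69.2 CPM against 63.7, 17.1 and 50.0 CPM. All its treated libraries lay below the 2VO libraries, and treated replicate 2 far below. The log2 fold change was -0.72 (SE 0.433, unadjusted p = 0.140 in edgeR's test) and -0.32 without treated replicate 2.

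Some members that share a seed differed widely in level. Of the seed GGUUGUC, miR-496-5p had 0.384 ± 0.116 and 0.647 ± 0.206 CPM and miR-410-5p 0.474 ± 0.415 and 0.546 ± 0.593 CPM (SD, n = 3 each), the last from 1, 12 and 3 counts against 1, 2 and 10, both close to the limit that a count of 0 allows, and miR-494-5p was not tested. Of the seed UGGAUAU, miR-376b-5p had 179, 142 and 231 CPM against 167, 128 and 190 CPM, a log2 fold change of -0.19 (SE 0.255), whereas miR-376c-5p had 4, 11 and 9 counts against 3, 1 and 7. miR-299a-5p had 26, 66 and 46 counts against 29, 22 and 37, and miR-299b-5p 0, 4 and 1 against 4, 1 and 0. The log2 fold changes of miR-299a-3p and miR-299b-3p, -0.45 (SE 0.353) and -0.44 (SE 0.370), are 1 value rather than 2. Outside the cluster, the seed AGGUCAC of miR-1193-3p is that of miR-370-5p (7.12 CPM), and the seed ACACACC of miR-329-3p is that of miR-362-3p (19.0 CPM).

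Treated replicate 2 was the lowest of the 6 libraries for 37 of the 65 members (56.9%) and the highest for 8 (12.3%), against 33.3% and 33% of all tested miRNAs. Over the 38 members with a mean of at least 20 CPM, its log2(CPM + 1) lay a median of 0.51 below the mean of the other 5 libraries, a difference of -0.51 with quartiles of -1.03 and 0.01. Over all 230 tested miRNAs of that level the median difference was -0.08. The members did not move together in this library. miR-494-3p lay lowest, at -1.87, followed by miR-1193-3p (-1.49), miR-543-3p (-1.46), miR-668 (-1.32) and miR-323-3p (-1.26). In contrast, miR-134-5p was at 0.65, miR-380-5p at 0.62 and miR-379-5p at 0.07. miR-668 and miR-134-5p, whose hairpins are neighbours on the chromosome, thus lay far apart. By arm, the median difference was -0.81 over 23 members of the 3p arm and -0.10 over 13 of the 5p arm. The other miRNAs of that level, without those of the Dlk1-Dio3 domain described below, were set beside them. Their medians were -0.05 for 74 of the 3p arm and 0.14 for 82 of the 5p arm. This library also had the lowest sum of neuron markers and the highest sums of Hox-cluster and choroid plexus miRNAs, and the part of these in the differences was not tested.

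**Figure D4:**
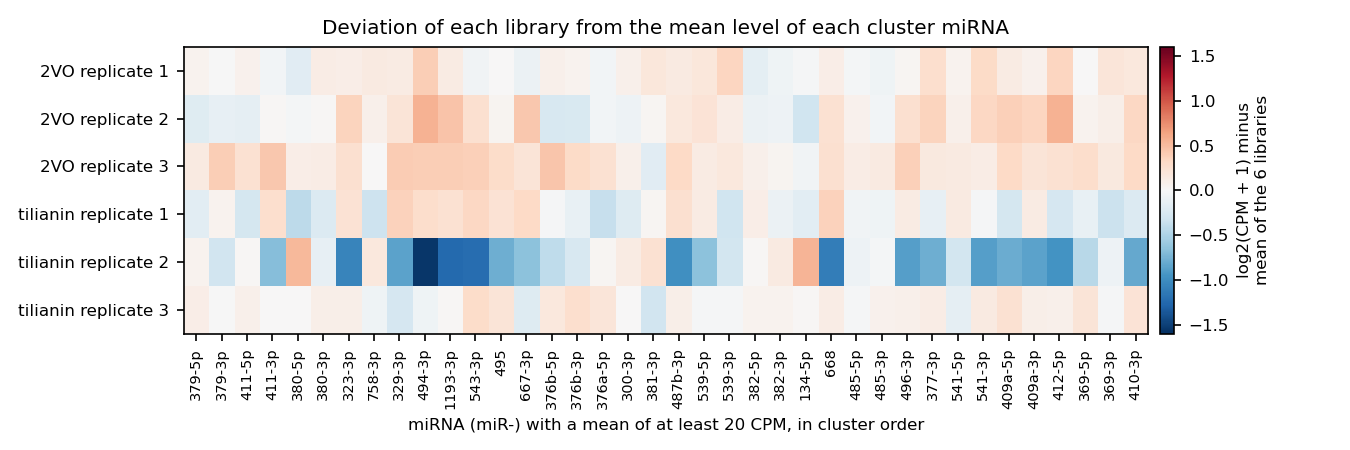
Deviation of each library's log2(CPM + 1) from the mean of the 6 libraries, for the 38 cluster miRNAs with a mean of at least 20 CPM, in chromosome order (blue is lower, red is higher). The row of treated replicate 2 is mostly blue, deepest at miR-494-3p, with miR-380-5p and miR-134-5p in red, while the other rows stay pale.

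Since both arms of a hairpin come from 1 transcript, the balance between them was compared as well, as the log2 ratio of 3p to 5p counts. Of the 31 cluster hairpins with both arms tested, the 3p arm was the more abundant in 19 and the 5p arm in 12. miR-409a was strongly weighted to its 5p arm, with a log2 ratio of -4.64 ± 0.04 in the 2VO group and -4.51 ± 0.30 in the treated group (SD, n = 3 each). miR-411 had nearly equal arms, with -0.02, 0.25 and 0.28 in the 2VO libraries and 0.65, -0.60 and 0.02 in the treated ones, a mean of 0.17 ± 0.16 against 0.02 ± 0.62. Treated replicate 2 was thus the only library in which the 5p arm of miR-411 clearly outnumbered the 3p arm.

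The balance differed at an unadjusted p-value below 0.05 for 3 of the 31 hairpins, against 3.97% of the 151 hairpins in the whole table. These were miR-381 (difference of -1.47 between the log2 fold changes of the 3p and 5p arms, unadjusted p = 0.0209), miR-496 (-1.17, unadjusted p = 0.0454) and miR-487b (1.58, unadjusted p = 0.0471) in edgeR's test of differential arm use. In all 3 the difference was beyond 1 or -1, as in 2.65% of the hairpins of the table. Without treated replicate 2 the same 3 hairpins passed (differences of -1.76, -1.09 and 1.38). All adjusted p-values of cluster hairpins were at least 0.993 in that test. In each of the 3 the rarer 5p arm had a mean of only 4.5 to 6.5 counts per library, and two-sided exact permutation tests of the ratio gave p = 0.2 for miR-381 and p = 0.1 for miR-496 and miR-487b, where 0.1 is the smallest value that 3 libraries against 3 allow. miR-381-5p had 1, 3 and 4 counts in the 2VO libraries and 11, 4 and 4 in the treated ones, and miR-496-5p 3, 4 and 4 against 8, 3 and 5. The log2 ratios were 9.01, 8.13 and 6.81 against 5.92, 6.99 and 6.77 for miR-381. They were 8.72, 9.08 and 8.47 against 7.55, 7.30 and 7.96 for miR-496 and 9.53, 9.20 and 8.71 against 10.09, 11.81 and 10.90 for miR-487b. The groups thus overlapped only for miR-381, through 2VO replicate 3. Of the 20 cluster hairpins whose rarer arm had a mean of at least 20 counts, 0 had an unadjusted p-value below 0.05 in edgeR's test. Of 73 other hairpins of the table at that level, 2 had one. Over the 20 of the cluster, treated replicate 2 had the lowest ratio in 10, and lay a median of 0.32 below the other libraries (a difference of -0.32). Among the 73 other hairpins it was lowest in 22, with a median difference of 0.01.

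**Figure D5:**
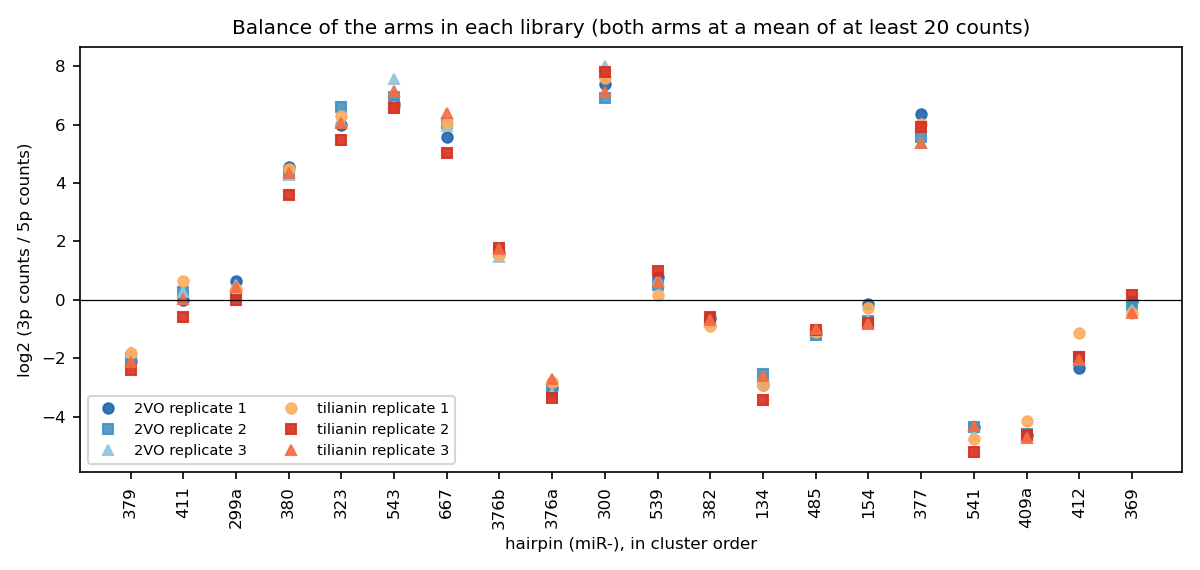
Log2 ratio of 3p to 5p counts in each library for the 20 cluster hairpins whose rarer arm had a mean of at least 20 counts. Points above 0 have more of the 3p arm. The ranges of the groups overlap in each hairpin shown, and miR-411 ranges from -0.60 in treated replicate 2 to 0.65 in treated replicate 1.

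The other miRNAs of the Dlk1-Dio3 domain, outside the chosen names, gave 23 rows that were all tested (such as miR-127-3p and miR-434-3p). Of these, 0 were called in either direction and 0 had an unadjusted p-value below 0.05 in edgeR's test, with a smallest adjusted p of 0.746 over the table. Their log2 fold change was below 0 in 22 of 23, with a median of -0.22, near the -0.19 of the cluster. Treated replicate 2 was the lowest library for 13 of the 23 (56.5%), and the median difference of its log2(CPM + 1) from the mean of the other libraries was -0.50 over them. Their summed level was 54655 ± 5163 CPM in the 2VO group against 52689 ± 4153 CPM under treatment (SD, n = 3 each). This was 96.4% of the 2VO mean, or 100.7% without treated replicate 2. Most of the sum was miR-127-3p, with 45000 ± 4288 CPM against 44008 ± 3096 CPM and a log2 fold change of -0.03, so it says little of the other rows. miR-770-3p was the only one whose groups did not overlap, with the treated libraries above the 2VO libraries (log2 fold change 0.27).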

How the data were processed

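Small RNA libraries were made with the TruSeq kit from rat brain RNA, and the authors deposited the read counts of mature miRNAs in each library, without normalization. The submitters' processing notes name FastQC 0.11.2, Trimmomatic 0.36, cutadapt 1.14 and DESeq2 1.12.4. The aligner, miRNA reference, genome build and counting program are not given in the sources used here. Each column was matched to its sample by the library code in the labels, and the code of 2VO replicate 3 carries the number 4.

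After TMM scaling, every miRNA whose counts summed to 10 or more was tested in R 4.3.3 by the quasi-likelihood method of edgeR 4.0.16 (with limma 3.58.1), the group being the single term. P-values were adjusted over the whole table. Standard errors (SE) are approximate, being the log2 fold change divided by the square root of F. The thresholds are those of the study, and the test was chosen to fit counts. Arm balance was tested with edgeR's diffSpliceDGE over hairpins with both arms tested, and ratios per library had 0.5 added to each count. In simulated data with a log2 change of 2, 96.4% of 195 changed miRNAs among 447 passed both thresholds, and 1.98% of the unchanged ones did. For arm balance 97.5% of 40 changed hairpins among 150 passed. The simulated counts had the same dispersion for every miRNA and no deviating library. Smaller changes, such as most of those reported here, were not simulated, so the power to find them is not known. Sequences and positions were matched by name to RefSeq (GRCr8).

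The cluster's members, the marker lists, the naming rule and the alternatives were chosen with earlier results of these data known. Values were given by library, or as mean ± SD for rare arms, for the 10 most abundant members, members or hairpins with an unadjusted p-value below 0.05, members with known neuronal roles and members of shared seeds. miR-494-3p was picked after its values were seen, as were members whose groups did not overlap. The alternatives were DESeq2's size factors, library totals, filterByExpr, no filter, DESeq2's Wald test (DESeq2 1.42.0), limma-voom, robust dispersion, a replicate block, identical rows kept once and each library left out. Added after seeing the data were TMM scaling over the miRNAs outside the cluster and a fit without the miR-299b-3p row. For arm balance they were limma on log2 ratios and a higher count minimum.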

Additional observations from a re-analysis of the deposited data

How the results depend on the processing

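No member had an adjusted p under 0.05 in any of the 17 alternative fits across the table. The upregulated count of 0 became 1 without 2VO replicate 3, through miR-381-5p (log2 fold change 2.05, unadjusted p = 0.0372 in edgeR's test), and lay between 0 and 1 over the fits that left out a library. The downregulated count of 1 became 0 with filterByExpr (which removed miR-487b-5p), 0 with DESeq2's Wald test, 0 with the replicate block, and lay between 0 and 1 when a library was left out. The 2 members with an unadjusted p-value below 0.05 became 1 each with library totals, filterByExpr, DESeq2's Wald test and the replicate block, where it was miR-376c-3p (unadjusted p = 0.0468 in edgeR's test), and 0 to 5 when a library was left out. In those 4 settings, in that order, 7.05%, 6.70%, 6.47% and 3.74% of all tested miRNAs passed. The members became 3 of 65 with TMM scaling over the miRNAs outside the cluster, against 7.93% of all tested. This alternative was added after seeing the data, and the third was miR-539-3p (log2 fold change -0.44, unadjusted p = 0.0470). The highest count, 5 of 64, was without treated replicate 3 (miR-377-3p, miR-409a-5p, miR-410-3p, miR-412-5p and miR-539-3p), where 11.8% of all tested miRNAs passed. It was 0 without 2VO replicate 1, 2VO replicate 2 or treated replicate 2, where 2.67%, 2.04% and 4.49% of all tested passed. The deviations of libraries of the same number from the means of their groups had correlations of -0.121 for number 1, 0.00917 for 2 and 0.297 for 3. Of 6 libraries, 2 correlated best with their own number. The labels state no pairing, and with so few libraries these values cannot settle whether libraries of the same number were paired. The block changed no other call among the members. The median log2 fold change of members stayed between -0.29 and -0.09 and the summed level between -0.46 and -0.16 (log2 ratio) when a library was left out. The 3 hairpins with a shifted arm balance were all removed before testing by a minimum of 60 counts per arm, so that setting cannot check them. They became 0 with the replicate block and 0 to 3 when a library was left out, with 0 without 2VO replicate 1 or 2. With limma on log2 ratios, miR-496 (unadjusted p = 0.00503 in limma's test) and miR-487b (unadjusted p = 0.00973) passed and miR-381 did not. The count of members with all treated libraries below the 2VO libraries was 9 with library totals and 9 to 19 when a library was left out, alternatives added after seeing the data. Leaving out a library can only keep this count or raise it. It was 19 without treated replicate 3, 17 without 2VO replicate 1 and 14 without treated replicate 1, when fewer libraries had to be in order, and those of all tested miRNAs were 14.8%, 9.69% and 11.7%.

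The signs that turned among the members whose values the naming rule gives were these. The log2 fold change of miR-379-5p was 0.00990 with DESeq2's size factors, 0.0194 with filterByExpr, 0.00992 with DESeq2's Wald test and 0.000670 with limma-voom. That of miR-381-3p was 0.00403, 0.00783 and 0.00362 with the first 3 of these, that of miR-134-3p 0.00358 and of miR-485-3p 0.00544 with filterByExpr, and that of miR-410-5p -0.0714 with limma-voom. Over the fits that left out a library, the log2 fold changes that turned sign ranged from -0.0607 to 0.0982 for miR-379-5p, -0.24 to 0.0667 for miR-376b-3p, -0.42 to 0.0172 for miR-411-3p, -0.20 to 0.0117 for miR-411-5p, -0.10 to 0.0702 for miR-300-3p, -0.14 to 0.12 for miR-381-3p, -0.31 to 0.12 for miR-495, -0.19 to 0.27 for miR-376a-3p, -0.16 to 0.11 for miR-134-3p, -0.0649 to 0.0460 for miR-485-3p, -1.31 to 1.17 for miR-410-5p, -0.17 to 0.89 for miR-299b-5p and -0.32 to 0.00276 for miR-376b-5p. Over all members, 12 of 64 turned sign without treated replicate 2. Beyond those listed, these were miR-666-5p (from 1.06 to -0.13), miR-380-5p (0.12 to -0.15), miR-543-3p (-0.25 to 0.13), miR-668 (-0.29 to 0.0608), miR-412-3p (-0.29 to 0.0305), miR-544-3p (-0.0626 to 0.25) and miR-154-3p (-0.0354 to 0.0270). In the other fits, turns of sign were counted for the listed members only. The cause of these turns was not tested. With 3 libraries a group and at most 13 counts for miR-487b-5p, depth limits what can be said of the rare arms.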

Other observations

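The stretch of the chromosome that holds the cluster also carries 6 miRNAs of the table with other names. miR-6331, on the same strand as most of the cluster, had 557, 713 and 449 counts in 2VO replicates 1, 2 and 3 and 525, 243 and 448 in treated replicates 1, 2 and 3. It had a log2 fold change of -0.22, with treated replicate 2 again the lowest library. The other 5 lie on the opposite strand and were hardly detected. miR-3579, miR-3592 and miR-3595 had 0 counts in every library, miR-3576 had 1 to 3, and miR-3578 had 2 counts in 2VO replicate 1 and 0 in the others. Together with miR-409b, which had 1 count, the opposite strand thus showed little beyond the miR-299b rows that repeat miR-299a.

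The spread among the 3 2VO libraries differed between members. The coefficient of variation was 9.03% for miR-409a-5p, 3.32% for miR-541-5p and 11.7% for miR-379-5p, and that of miR-376b-3p was 18.8%. It was 24.2% for miR-376b-5p and 106% for miR-299b-5p, which had at most 4 counts in a library.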
